A study of Mus musculus with 8 samples.

Results

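The genes described here are 9 of the 45232 rows of the deposited count table, chosen by symbol from the machinery that makes and loads peptides for MHC class I. They are the immunoproteasome subunits Psmb8, Psmb9 and Psmb10, the peptide transporter genes Tap1 and Tap2, the peptide editors Tapbp (tapasin) and Tapbpl (TAPBPR), the trimming peptidase Erap1 and the transcriptional regulator Nlrc5. All 9 passed the filter on low counts, and each symbol occurred in a single row. The libraries came from CD8 T cells of OT-I mice, which carry a transgenic T cell receptor for the ovalbumin peptide SIINFEKL. The cells had been activated with that peptide and held for 5 days with IL-2. In the RPMI+pEtn group (4 libraries) the medium was RPMI with 10% FBS and 470 µM o-phosphoethanolamine (pEtn), a phosphorylated precursor of the phospholipid phosphatidylethanolamine. In the RPMI group (4 libraries) the medium was RPMI with 10% FBS and no added pEtn. The comparison addresses what added pEtn does to the transcripts of such cells. The number of mice and the sorting gate are not given in the labels.

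Cells of nearly every type show peptides of their own proteins on MHC class I. The proteasome cuts the proteins, the TAP transporter carries the peptides into the endoplasmic reticulum, peptidases there trim them, and tapasin and TAPBPR help class I molecules to bind those of high affinity. In the immunoproteasome the subunits encoded by Psmb8, Psmb9 and Psmb10 take the places of the constitutive catalytic subunits encoded by Psmb5, Psmb6 and Psmb7, and this form is abundant in lymphocytes and in cells exposed to interferon gamma. NLRC5 is known as the transactivator of MHC class I genes and of several genes of this machinery.

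Total counts ran from 29223765 to 35504571 in the RPMI+pEtn libraries and from 31280997 to 34474420 in the RPMI libraries. The CD8 T cell markers Cd2, Cd3d, Cd3e, Cd3g, Cd8a and Cd8b1 were abundant, with a summed level of 1595 to 2083 CPM (counts scaled by library size with TMM) in RPMI+pEtn and 1413 to 1848 CPM in RPMI. The 5 B cell markers summed to 0.771 to 3.14 CPM in RPMI+pEtn and 0.850 to 2.67 CPM in RPMI, with Ms4a1 and Pax5 at 0 in every library. The 8 myeloid and dendritic cell markers summed to 8.77 to 32.6 CPM in RPMI+pEtn and 15.2 to 38.6 CPM in RPMI, with Adgre1 at 0. Within that list Itgax rose (log2 0.84, edgeR adjusted p = 0.0111) and Xcr1 fell (log2 -0.94, adjusted p = 0.000821) with the replicate number as a block, as Cd8b1 rose among the T cell markers (log2 0.47, adjusted p = 0.00447). The 3 NK cell markers summed to 5.94 to 33.8 CPM in RPMI+pEtn and 16.1 to 31.5 CPM in RPMI, with Klra8 at 0. The 3 CD4 and regulatory T cell markers, most of them Zbtb7b reads, summed to 27.5 to 39.9 CPM in RPMI+pEtn and 15.4 to 25.0 CPM in RPMI. Zbtb7b itself rose (log2 0.68, SE 0.17, edgeR adjusted p = 0.0262), and the part of these markers in the other results was not tested. Counts of replicates 3 and 4 of a medium resembled each other more than those of any other pair. Their chi-square per gene was 5.04 in RPMI+pEtn and 11.2 in RPMI, where the remaining pairs within a medium gave 51.1 to 107. Libraries with the same number deviated together in both media, so the fit with the replicate number as a block is given where it changes a call.

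Transcripts of most of this machinery were more abundant with pEtn. Psmb8, Psmb9, Tap1, Tapbp and Tapbpl rose, 5 of the 9 genes, and none fell, by edgeR's quasi-likelihood test at an adjusted p under 0.05. Of all 11862 genes tested, 5.22% rose and 7.56% fell by the same test (12.8% in either direction). With the replicate block 8 of the 9 rose, all but Erap1, against 15.8% of all genes (32.3% were called in either direction). The median log2 fold change was 0.50 over the 9 genes and 0.02 over all genes tested. The media did not overlap, with RPMI+pEtn higher, in 5 of the 9 genes (Psmb8, Psmb9, Tap1, Tapbp and Nlrc5), against 9.74% of all genes (20.4% in either direction). Within each replicate number the RPMI+pEtn library was above the RPMI library in 4 of 4 numbers for 8 of the 9 genes, against 25.1% of all genes. In bulk RNA, more cells of a kind and more RNA per cell cannot be told apart.

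The size of the difference varied with the replicate number. The median log2 difference over the 9 genes was 0.33, 0.38, 0.48 and 0.73 in numbers 1 to 4, while the median of all genes tested lay between 0.00 and 0.03. The nuclear RNAs Malat1 and Neat1, read here as a sign of RNA handling, differed by a median of -0.06, 0.14, 1.22 and 1.28, and the 13 genes encoded by mitochondrial DNA that were read with them by 0.30, -0.04, 1.24 and 0.93. Both sets thus differed most in numbers 3 and 4. Of the 13 mitochondrial genes, 4 rose without the block and 5 with it, against 5.22% and 15.8% of all genes, and none fell. Their median log2 fold change was 0.54, beside 0.50 over the 9 genes. The part of these RNAs in the result was not tested. In numbers 1 and 2 the 8 genes were higher with pEtn in both, as were 36.4% of all genes tested, and a fit of replicates 1 and 2 alone called 0 of the 9 genes. With the counts of replicates 3 and 4 summed, none of the 9 genes passed without the block (Psmb9 edgeR adjusted p = 0.0508, Tap1 0.0743) and the same 8 passed with it.

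**Figure D1:**
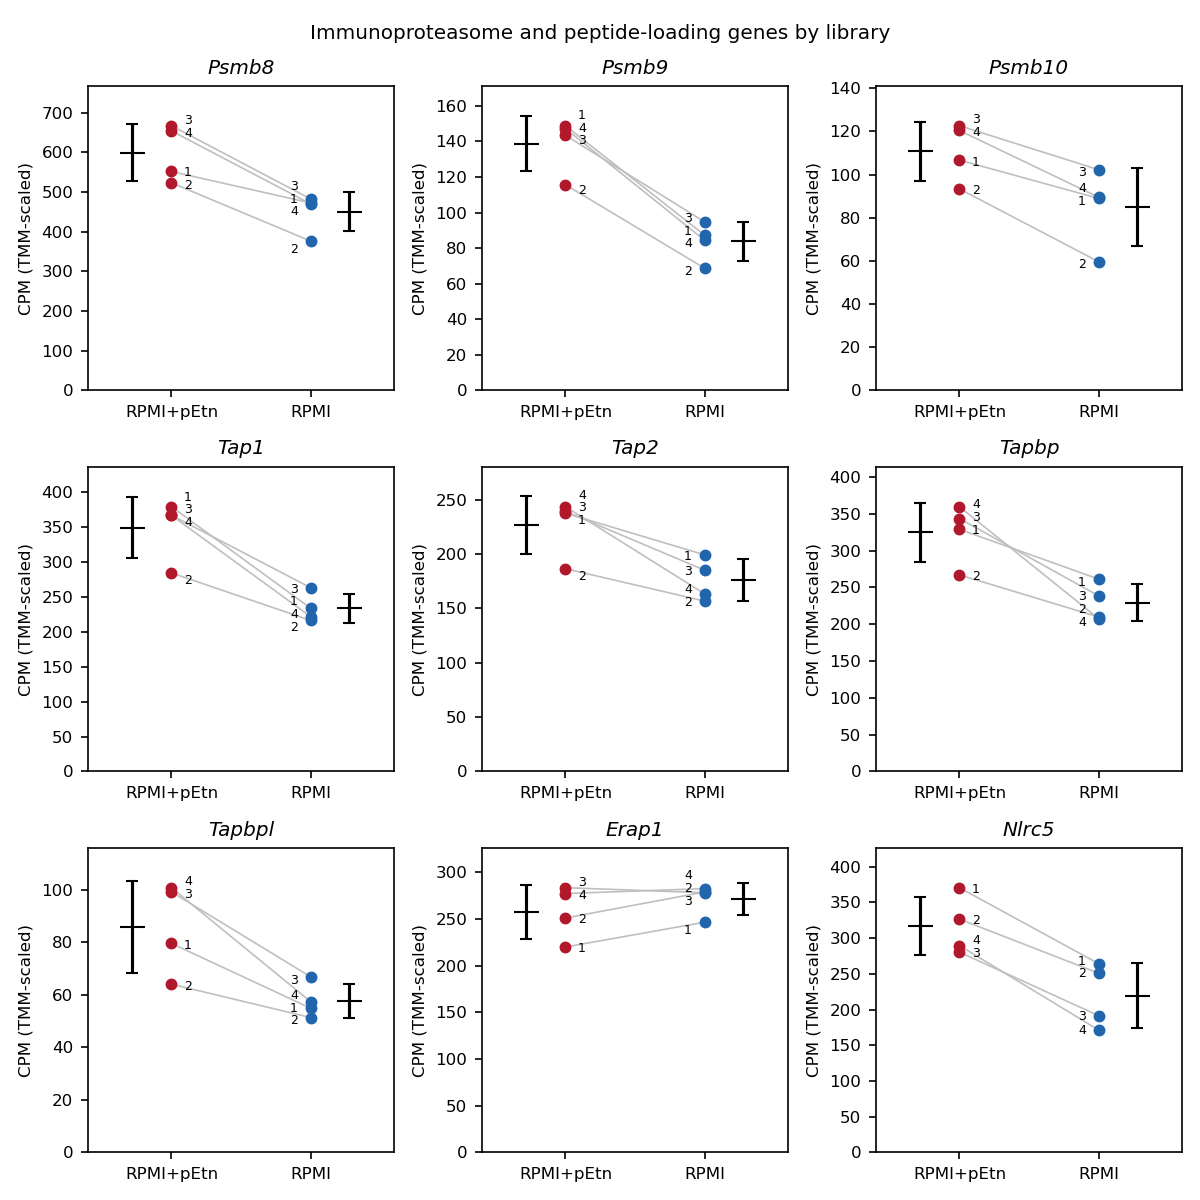
Level of each of the 9 genes in TMM-scaled CPM (y axis, from 0) in the RPMI+pEtn (red) and RPMI (blue) libraries. Points carry the replicate number, lines join equal numbers, and bars show the mean ± SD of 4 libraries. In 8 panels every line falls towards RPMI. For Erap1 the RPMI+pEtn libraries lie at 220.1 to 284 CPM and the RPMI libraries at 247 to 283 CPM.

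Psmb9 encodes beta1i, the subunit that takes the place of the caspase-like Psmb6 product. Its level was 149, 116, 143 and 147 CPM in RPMI+pEtn libraries 1 to 4, against 87.3, 68.7, 94.8 and 84.4 CPM in RPMI libraries 1 to 4. The lowest RPMI+pEtn library was above the highest RPMI library. Psmb9 rose 1.66-fold (log2 0.73, SE 0.12, edgeR adjusted p = 0.00619), the largest fold change of the 9 genes. Means were 139 ± 15.6 CPM in RPMI+pEtn and 83.8 ± 10.97 CPM in RPMI (SD, n = 4 each), and Psmb9 passed in each of the 8 fits without the block that left out a library.

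Psmb8 encodes beta5i (LMP7), the chymotrypsin-like subunit, and was also the most abundant of the 9 genes per length. It stood at 552, 523, 667 and 654 CPM in RPMI+pEtn libraries 1 to 4, against 472, 376, 482 and 470.1 CPM in RPMI libraries 1 to 4. The media did not overlap, but the gap between the lowest RPMI+pEtn library and the highest RPMI library was small beside the spread. Psmb8 rose 1.33-fold (log2 0.41, SE 0.12, edgeR adjusted p = 0.0457). This call was the least firm of the 5: it held in 1 of the 8 fits without the block that left out a library, with an adjusted p of up to 0.129 without RPMI+pEtn replicate 4, and in all 8 such fits with the block.

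Psmb10 encodes beta2i, which takes the place of the trypsin-like Psmb7 product. It stood at 107, 93.4, 123 and 120.4 CPM in RPMI+pEtn libraries 1 to 4, against 89.0, 59.7, 102 and 89.5 CPM in RPMI libraries 1 to 4. The media overlapped, because RPMI replicate 3 lay above RPMI+pEtn replicate 2, while each RPMI+pEtn library was above the RPMI library of its number. The log2 fold change was 0.38 (SE 0.16), with an edgeR adjusted p of 0.16, and of 0.00881 with the replicate block.

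The start regions of these genes are shown because Psmb9 and Tap1, the genes with the smallest adjusted p of the 9, are transcribed away from each other from a single short stretch, and because Psmb8 lies beside them. In the RefSeq gene table the order on chromosome 17 is H2-DMb1, Psmb9, Tap1, Psmb8, Tap2 and H2-Ob. The sequences below are from RefSeq on GRCm38.p6, 5′ to 3′ on the plus strand. The first is the 225 bases between the starts of Psmb9 and Tap1, at chr17:34187331-34187555, and the second the 250 bases before the start of Psmb8, at chr17:34197945-34198194. Capitals mark a match to a GC box (GGGCGG) in the first and to a gamma-activated site (GAS, TTCNNNGAA), an element known from genes that respond to interferon gamma, in the second.
Tap1-Psmb9: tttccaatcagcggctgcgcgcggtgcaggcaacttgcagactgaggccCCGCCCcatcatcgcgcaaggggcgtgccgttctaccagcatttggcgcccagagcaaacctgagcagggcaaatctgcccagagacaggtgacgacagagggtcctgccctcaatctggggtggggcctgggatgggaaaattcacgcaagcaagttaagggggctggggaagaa
Psmb8: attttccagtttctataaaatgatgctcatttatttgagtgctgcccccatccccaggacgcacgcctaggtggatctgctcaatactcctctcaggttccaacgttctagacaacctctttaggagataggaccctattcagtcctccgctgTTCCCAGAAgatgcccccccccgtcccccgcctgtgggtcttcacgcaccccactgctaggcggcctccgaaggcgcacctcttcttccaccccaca
The search took both strands of the 250 bases before each start, and 6 of the 9 genes matched a RefSeq window. The GAS match of Psmb8 begins 97 bases before the start and was the only one among the 6 genes, while 7.02% of 32851 promoters of that length hold one. A GC box was found for Psmb9, Tap1 and Tapbp (32.7% of promoters), and CCAAT, which is not in capitals above, for the same 3 genes (33.8%). The Psmb9 and Tap1 windows share most of their bases, so their matches are the same. None of the 6 windows held an interferon regulatory factor element, searched as GAAA and GAAA with any 2 bases between them (2.98% of promoters), or an NF-kappaB site, searched as GGGA and TTCC with any 2 bases between them (1.21%). These are letter matches and no binding was measured.

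H2-DMb1 and H2-Ob, the genes on either side of this stretch, encode chains of proteins of the MHC class II route and were low. H2-DMb1 ran from 0.484 to 1.21 CPM in RPMI+pEtn and from 0.293 to 0.780 CPM in RPMI (edgeR adjusted p = 0.471). H2-Ob ran from 0.242 to 2.28 CPM in RPMI+pEtn and from 0.0650 to 0.930 CPM in RPMI (adjusted p = 0.536). Per length, H2-DMb1 averaged 1.26 ± 0.611 TPM in RPMI+pEtn and 0.859 ± 0.400 TPM in RPMI (SD, n = 4 each), far below Psmb9 beside it, at 99.6 ± 12.2 TPM in RPMI+pEtn and 59.7 ± 7.88 TPM in RPMI. TPM is the authors' read share scaled by gene length.

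The 3 constitutive catalytic subunits were not called higher without or with the block. Psmb5 averaged 80.9 ± 12.6 CPM in RPMI+pEtn and 104 ± 28.6 CPM in RPMI (SD, n = 4 each), with a log2 fold change of -0.36 (SE 0.20, edgeR adjusted p = 0.259, 0.0241 with the block). Psmb6 averaged 143 ± 17.2 CPM in RPMI+pEtn and 141 ± 26.8 CPM in RPMI (log2 0.02, adjusted p = 0.958), and its sign changed in some alternatives. Psmb7 averaged 140.4 ± 12.04 CPM in RPMI+pEtn and 165 ± 37.1 CPM in RPMI (log2 -0.23, adjusted p = 0.368). Of these 3 genes none was called without the block, where 12.8% of all genes were, so 0 of 3 is near that share. With the block Psmb5 was called lower, as were 16.5% of all genes. Psmb5 was not called with replicates 3 and 4 summed and the block (adjusted p = 0.107). Nor was it called in 6 of 8 fits with the block that left out a library (adjusted p of up to 0.117).

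The ratio of each immunoproteasome subunit to the subunit it replaces was taken within each library, from the deposited TPM (a read share scaled by gene length). The height of a ratio thus rests on the authors' lengths, while its fold between media does not. Those lengths are 2.9, 0.923, 3.88 and 1.98 kb for Psmb8, Psmb5, Psmb9 and Psmb6. Their longest coding transcripts in GENCODE release M21 are 1.63, 0.899, 1.35 and 0.798 kb. The Psmb8 to Psmb5 ratio was 2.57, 2.30, 2.24 and 2.36 in RPMI+pEtn libraries 1 to 4, against 1.76, 1.61, 1.16 and 1.20 in RPMI libraries 1 to 4. The ratio was 1.67-fold higher with pEtn and the media did not overlap (exact two-sided permutation test p = 0.0286, the smallest that 4 against 4 libraries allow, 0.0429 adjusted over 3 ratios). The Psmb9 to Psmb6 ratio was 0.629, 0.432, 0.464 and 0.486 in RPMI+pEtn libraries 1 to 4, against 0.315, 0.341, 0.304 and 0.269 in RPMI libraries 1 to 4. It was 1.62-fold higher, again without overlap (exact permutation p = 0.0286, adjusted 0.0429). The Psmb10 to Psmb7 ratio was 0.832, 0.622, 0.797 and 0.776 in RPMI+pEtn libraries 1 to 4, against 0.628, 0.434, 0.523 and 0.417 in RPMI libraries 1 to 4. RPMI replicate 1 lay just above RPMI+pEtn replicate 2, and the 1.52-fold difference did not pass (exact permutation p = 0.0571, adjusted 0.0571). All 3 ratios were higher with pEtn in 4 of 4 numbers, where an exact sign-flip test over the numbers cannot go below the 0.125 it gave. Without RPMI+pEtn replicate 1 or 4 the first 2 ratios no longer passed (adjusted exact permutation p = 0.0857), at log2 differences of 0.70 and 0.74 for Psmb8 to Psmb5 and of 0.59 and 0.71 for Psmb9 to Psmb6. With replicates 3 and 4 averaged the differences were 0.67 and 0.69, where 3 against 3 values cannot give a p below 0.1.

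**Figure D2:**
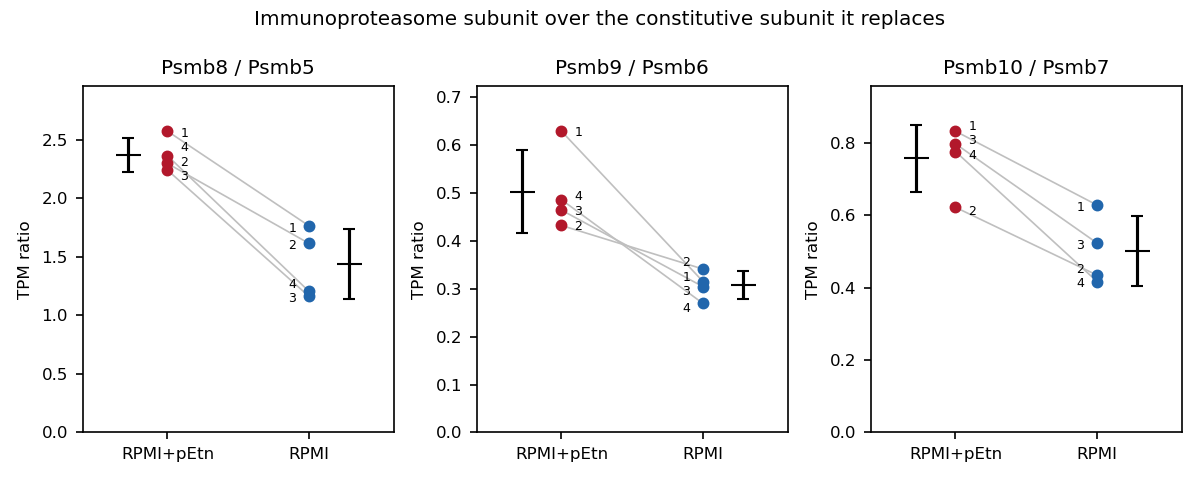
Ratio of the TPM of Psmb8 to Psmb5, Psmb9 to Psmb6 and Psmb10 to Psmb7 (y axes, from 0) in the RPMI+pEtn (red) and RPMI (blue) libraries. Points carry the replicate number, lines join equal numbers, and bars show the mean ± SD of 4 libraries. Every line falls towards RPMI, and the media overlap only for Psmb10 to Psmb7.

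None of the 11 non-catalytic core subunits tested (Psma1 to Psma7, Psmb1 to Psmb4) was called without or with the block. Of all genes tested, 12.8% were called in either direction without the block and 32.3% with it. The median log2 fold change of the 11 subunits was -0.07. Of the 5 assembly factors 0 rose and 1 fell (5.22% and 7.56% of all genes), Psmg3, a chaperone of the core particle. Psmg3 averaged 11.3 ± 1.497 CPM in RPMI+pEtn and 17.6 ± 2.17 CPM in RPMI (SD, n = 4 each; log2 -0.64, SE 0.14, edgeR adjusted p = 0.0181). Psmg2, another of the assembly factors, had a log2 fold change of -0.47 (adjusted p = 0.107, 0.00583 with the block). Pomp, which assists immunoproteasome assembly, had -0.09 (adjusted p = 0.589). None of the 4 activators was called without the block, where 12.8% of all genes were, so 0 of 4 is near that share. Psme1 and Psme2, the subunits of the interferon-inducible PA28 activator, had log2 fold changes of 0.23 and 0.26 (adjusted p = 0.167 and 0.394). Psme3, the nuclear PA28 gamma, had -0.33 (adjusted p = 0.0537, 0.0128 with the block), and Psme4 had 0.19 (adjusted p = 0.162, 0.0765 with the block). The media did not overlap for Psme3, lower with pEtn, and for Psme4, higher with pEtn (10.6% and 9.74% of all genes).

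Tap1 and Tap2 encode the subunits of the peptide transporter. Tap1 stood at 379.5, 285, 367 and 367 CPM in RPMI+pEtn libraries 1 to 4, against 234, 216, 263 and 222 CPM in RPMI libraries 1 to 4. Every RPMI+pEtn library was above every RPMI library. Tap1 rose 1.49-fold (log2 0.58, SE 0.11, edgeR adjusted p = 0.0105) and, like Psmb9, passed in all 8 fits without the block that left out a library. Tap2 stood at 238, 187, 239 and 244 CPM in RPMI+pEtn libraries 1 to 4, against 199, 157, 185 and 164 CPM in RPMI libraries 1 to 4. RPMI+pEtn replicate 2 fell below RPMI replicate 1, so the media overlapped, although each number was higher with pEtn. The log2 fold change of Tap2 was 0.36 (SE 0.12), with an edgeR adjusted p of 0.0709, and of 0.00968 with the block. Whether the changes of Tap1 and Tap2 differ was not tested. Exons of Psmb9 and Tap1, on opposite strands, share 212 bases in GENCODE release M21, 5.79% of the exonic bases of Psmb9 and 3.87% of those of Tap1, and whether the counting used strand is not stated, so some reads could count for either gene. Psmb8, Tap2 and Tapbp share 14.7%, 14.1% and 24.9% of their exonic bases with the predicted genes Gm20496, Gm15821 and Gm19412. Few reads were counted for these predicted genes, at most 14, 37 and 11 in any library. Psmb8, Tap2 and Tapbp had at least 12831, 5030 and 6389.

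Tapbp encodes tapasin, which bridges TAP and class I in the loading complex. It stood at 329, 267, 344 and 359.7 CPM in RPMI+pEtn libraries 1 to 4, against 261, 209.9, 239 and 208 CPM in RPMI libraries 1 to 4. The media did not overlap, with RPMI+pEtn replicate 2 and RPMI replicate 1 close to each other. Tapbp rose 1.42-fold (log2 0.50, SE 0.12, edgeR adjusted p = 0.0231), a call kept in 2 of the 8 fits without the block that left out a library, with an adjusted p of up to 0.0723 without RPMI+pEtn replicate 4. Tapbpl encodes TAPBPR, a tapasin relative that edits peptides outside the loading complex. It stood at 79.7, 64.1, 99.3 and 101 CPM in RPMI+pEtn libraries 1 to 4, against 55.0, 51.4, 66.9 and 57.5 CPM in RPMI libraries 1 to 4. The media overlapped at RPMI+pEtn replicate 2 and RPMI replicate 3. Tapbpl rose 1.49-fold (log2 0.58, SE 0.15, edgeR adjusted p = 0.0376), a call kept in 1 of those 8 fits, with an adjusted p of up to 0.108 without RPMI+pEtn replicate 4. Both genes passed in all 8 such fits with the block. The 3 chaperones of class I folding and loading tested were not called without or with the block, where 12.8% and 32.3% of all genes were. The lectins Calr (calreticulin) and Canx (calnexin) and the disulfide isomerase Pdia3 (ERp57) had log2 fold changes of 0.15, -0.15 and 0.21 (adjusted p = 0.729, 0.51 and 0.418).

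Erap1 encodes the aminopeptidase that trims peptides in the endoplasmic reticulum, and it alone of the 9 genes was not higher with pEtn. It stood at 220.1, 251, 284 and 277 CPM in RPMI+pEtn libraries 1 to 4, against 247, 279, 278 and 283 CPM in RPMI libraries 1 to 4. The media overlapped, and the RPMI+pEtn library was the lower in numbers 1, 2 and 4. The log2 fold change was -0.07 (SE 0.10, edgeR adjusted p = 0.682, 0.42 with the block), and it lay between -0.17 and -0.00 in every alternative run. Erap1 shares 11.5% of its exonic bases in GENCODE release M21 with the neighbouring gene Cast, whose reads could thus add to its count. The 250 bases before its RefSeq start, at chr13:74639603-74639852 on the plus strand of GRCm38.p6, are shown because Erap1 was the gene that was not higher. They hold no match to any of the 5 motifs searched, and neither does the window of Psmb10, which was higher in 4 of 4 numbers.
Erap1: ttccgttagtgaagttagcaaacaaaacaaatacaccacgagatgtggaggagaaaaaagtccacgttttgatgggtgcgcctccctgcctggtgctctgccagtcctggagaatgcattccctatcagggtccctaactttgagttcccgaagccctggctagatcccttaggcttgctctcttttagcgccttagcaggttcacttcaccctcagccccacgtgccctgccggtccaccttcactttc
Other peptidases that act on peptides in the cytosol or in vesicles did not rise either. Of 6 tested, 0 rose and 2 fell, against 5.22% and 7.56% of all genes tested. Tpp2, the cytosolic tripeptidyl peptidase, averaged 232 ± 11.6 CPM in RPMI+pEtn and 327 ± 16.3 CPM in RPMI (SD, n = 4 each; log2 -0.50, SE 0.08, edgeR adjusted p = 0.00453). Lap3, leucine aminopeptidase, averaged 63.8 ± 7.58 CPM in RPMI+pEtn and 97.9 ± 11.7 CPM in RPMI (log2 -0.62, SE 0.12, adjusted p = 0.0107). Thop1, thimet oligopeptidase, which destroys cytosolic peptides, had a log2 fold change of -0.57 (adjusted p = 0.0977, 0.00238 with the block). Tpp2, Lap3 and Thop1 were lower in each of the 4 numbers, with no overlap between the media, as in 10.6% of all genes tested. For Thop1 the media almost touched, with RPMI+pEtn replicate 4 at 34.67 CPM and RPMI replicate 1 at 34.69 CPM.

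Nlrc5 stood at 371, 327, 280.4 and 289.6 CPM in RPMI+pEtn libraries 1 to 4, against 264, 251, 191 and 171 CPM in RPMI libraries 1 to 4. The media did not overlap, with the lowest RPMI+pEtn library just above the highest RPMI library. The log2 fold change was 0.53 (1.44-fold, SE 0.15), with an edgeR adjusted p of 0.0512, on the other side of the threshold from the 0.00181 with the block. Of the 8 factors that NLRC5 is known to act with (the RFX, NF-Y and CREB families), none was called without the block (12.8% of all genes). With the block Rfx5, Rfxank and Nfyb rose, as did 15.8% of all genes. Their changes were 0.38, 0.36 and 0.24 on the log2 scale (edgeR adjusted p = 0.0450, 0.0161 and 0.0483).

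Most MHC class I chains, which receive the peptides, were also higher. Of 10 tested, 6 rose and 0 fell, against 5.22% and 7.56% of all genes tested. In 7 the media did not overlap, with RPMI+pEtn higher, against 9.74% of all genes. Their median log2 fold change was 0.45. The classical chain H2-K1 averaged 1733 ± 162 CPM in RPMI+pEtn and 1289.5 ± 152 CPM in RPMI (SD, n = 4 each; log2 0.43, SE 0.11, edgeR adjusted p = 0.0295). H2-D1 averaged 1935 ± 155 CPM in RPMI+pEtn and 1384 ± 126 CPM in RPMI (log2 0.48, SE 0.09, adjusted p = 0.0101). The non-classical H2-Q4, H2-Q6, H2-Q7 and H2-T22 rose by 0.62, 0.50, 0.57 and 0.79 on the log2 scale (adjusted p = 0.0181, 0.0449, 0.0256 and 0.00317). H2-T23 and H2-M3 passed with the block alone. H2-T24 averaged 7.78 ± 2.08 CPM in RPMI+pEtn and 9.36 ± 6.65 CPM in RPMI (log2 -0.27, SE 0.48, adjusted p = 0.761), the only chain of the 10 with a negative fold change. Some of these genes are close copies of each other, so the authors' counting could have split reads among those. B2m, the shared light chain, ran at 2509, 2833, 2759.9 and 2489 CPM in RPMI+pEtn libraries 1 to 4, against 2045, 3058, 1550.4 and 1537 CPM in RPMI libraries 1 to 4. RPMI replicate 2 was the highest of all 8 libraries, and B2m was not called (log2 0.37, SE 0.20, adjusted p = 0.264, 0.0637 with the block). Genes of the MHC class II route gave 0 called of the 7 tested among 10 (12.8% of all genes). With the block H2-Ab1, H2-DMa and H2-DMb2 rose (15.8% of all genes). H2-Ab1 differed far more between replicate numbers than between media, at 36.5, 25.2, 3.35 and 3.98 CPM in RPMI+pEtn libraries 1 to 4, against 15.8, 14.1, 1.95 and 3.38 CPM in RPMI libraries 1 to 4.

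**Figure D3:**
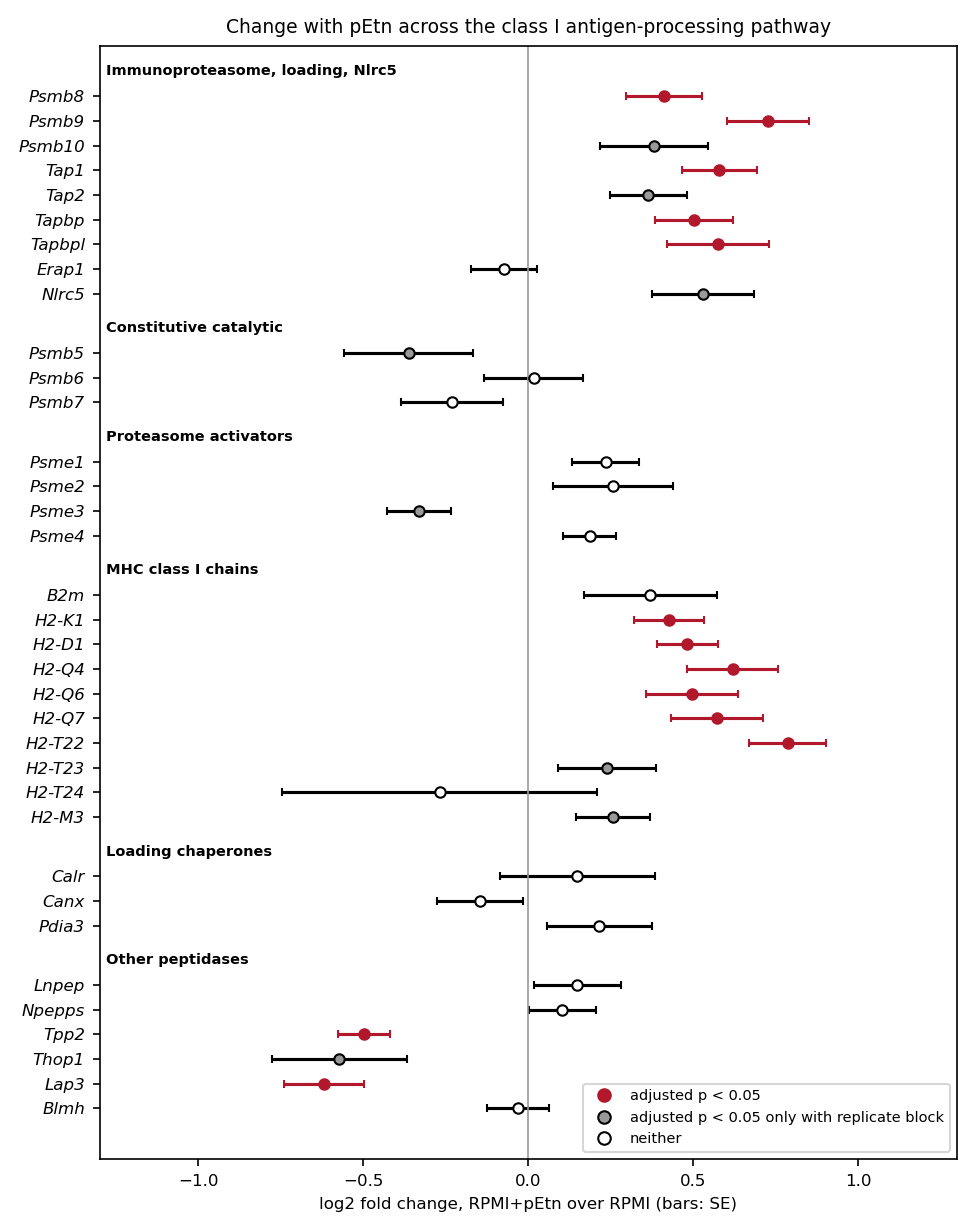
The x axis gives the log2 fold change of RPMI+pEtn over RPMI and the y axis the genes of the class I route by role, with bars of 1 SE from the edgeR fit without the block (n = 4 libraries per medium). Red marks an adjusted p under 0.05, grey one under 0.05 with the replicate block alone, and white neither. The immunoproteasome, transporter, editor and class I chain genes lie mostly right of 0, Erap1 at -0.07, and Tpp2 and Lap3 at -0.50 and -0.62.

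Several of these genes are known targets of interferon signalling, and its components were read from the same fit. Of 14 tested, 2 rose and 2 fell without the block, against 5.22% and 7.56% of all genes tested. With the block 7 rose and 2 fell, against 15.8% and 16.5% of all genes. Jak2, a kinase of the interferon gamma receptor, rose 1.66-fold (SE of the log2 value 0.19, edgeR adjusted p = 0.0349). Ifngr2, the signalling chain of that receptor, fell by 1.06 in log2 units (SE 0.14, adjusted p = 0.00209), and Irf8, an interferon-regulated transcription factor, fell by 0.99 in the same units (SE 0.17, adjusted p = 0.00697). The cytokine gene Ifng was at 7.01, 14.8, 8.54 and 9.11 CPM in RPMI+pEtn libraries 1 to 4, against 1.11, 3.46, 6.03 and 4.81 CPM in RPMI libraries 1 to 4. Its libraries did not overlap, although the gap between RPMI replicate 3 and RPMI+pEtn replicate 1 was narrow (adjusted p = 0.0711, 0.0239 with the block). Irf1, a transcription factor known to drive Psmb9 and Tap1, averaged 193 ± 25.6 CPM in RPMI+pEtn and 146 ± 38.4 CPM in RPMI (SD, n = 4 each; log2 0.40, SE 0.19, adjusted p = 0.214, 0.0109 with the block). Ifngr1, Jak1 and Stat2 likewise passed with the block alone, at log2 fold changes of 0.44, 0.31 and 0.84.

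Per length, the levels spanned a wide range. In the deposited TPM, Psmb8 was the highest at 574 ± 68.9 in RPMI+pEtn and 429 ± 47.9 in RPMI (SD, n = 4 each), above 97.6% of the genes tested. Tapbp followed with 259 ± 34.1 TPM in RPMI+pEtn and 182 ± 23.1 TPM in RPMI, then Psmb10 with 229 ± 28.5 TPM in RPMI+pEtn and 175 ± 36.8 TPM in RPMI. Erap1 was at 169 ± 17.8 TPM in RPMI+pEtn and 176 ± 8.11 TPM in RPMI. Tap2 (158 ± 19.99 TPM in RPMI+pEtn, 122 ± 15.3 TPM in RPMI) and Tap1 (168 ± 22.5 TPM in RPMI+pEtn, 111 ± 10.2 TPM in RPMI) could not be ordered, each being the higher in 4 of 8 libraries. Nlrc5 came below them with 109 ± 15.1 TPM in RPMI+pEtn and 75.1 ± 16.6 TPM in RPMI. Tapbpl, with 96.0 ± 19.7 TPM in RPMI+pEtn and 63.9 ± 7.01 TPM in RPMI, was below Nlrc5 in 4 of 8 libraries and above Psmb9 in 5 of 8, so neither order stands beyond the spread. Psmb8 over Tapbp and Tap1 over Nlrc5 held in 8 of 8 libraries, Tapbp over Psmb10 in 6, Psmb10 over Erap1 in 7 and Erap1 over Tap2 in 7. The order rests on the authors' gene lengths: the deposited counts and RPKM imply 3.88 kb for Psmb9, whose longest coding transcript in GENCODE release M21 is 1.35 kb, 2.9 against 1.63 kb for Psmb8 and 5.8 against 2.95 kb for Tap1, so the TPM of these 3 genes are low for their mRNA lengths. Fold changes between the media do not depend on this length.

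Within each medium the libraries fell into 2 patterns, both noticed after the values were seen. In the first, replicate 2 was the lowest of its medium in both media, in 6 of the 9 genes (Psmb8, Psmb9, Psmb10, Tap1, Tap2 and Tapbpl), against 14.5% of all genes tested. Of the 14 interferon signalling genes tested, 2 followed it, Irf1 and Ifngr2, a share near that of all genes. For Irf1, RPMI replicate 2 lay at -0.64 and RPMI+pEtn replicate 2 at -0.31 on the log2 scale from the mean of its medium. None of the 10 MHC class I chains followed it. In the second, replicates 1 and 2 were above replicates 3 and 4 in both media. Nlrc5 was the only one of the 9 genes to show it, with 7 of the 10 MHC class I chains (H2-K1, H2-Q4, H2-Q6, H2-Q7, H2-T22, H2-T23 and H2-T24), against 17.0% of all genes. Genes of each set share their libraries, so they are not separate observations of a pattern.

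**Figure D4:**
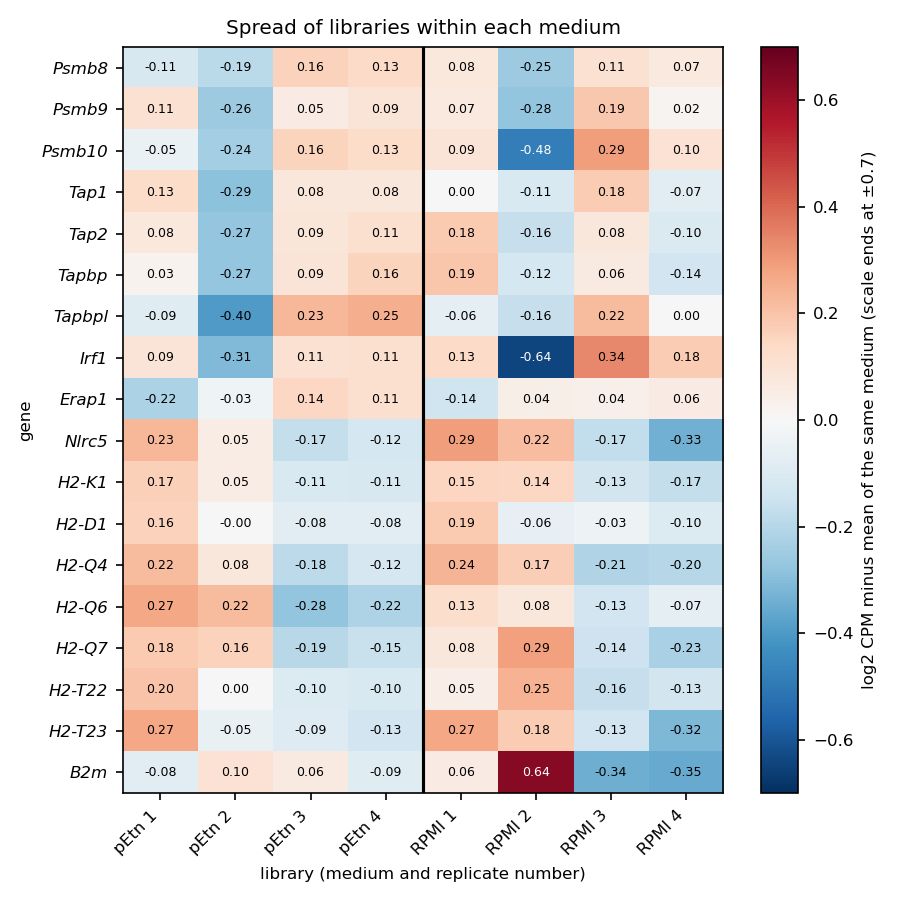
Log2 CPM of each gene (rows) in each library (columns) minus the mean of the 4 libraries of the same medium, so that the difference between media is removed. Blue is below and red above that mean, and the colour scale ends at the values written beside it. Replicate 2 is blue in both media from Psmb8 down to Irf1, and replicates 3 and 4 are blue in both media from Nlrc5 down through most class I chains.

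The genes whose profile over the 8 libraries lay closest to each of the 9 were found by the mean absolute difference in log2 CPM after subtracting each gene's mean, among 9194 genes of at least 5 CPM. Among the closest genes were Habp4 and Apeh for Psmb8, Smpd1, Kif13b and Lrch4 for Psmb9, and Chmp6 and Dxo for Psmb10. They were Fzr1, Tgtp2 and Sirt7 for Tap1, Fcho1, Map4k2 and Trim11 for Tap2, Srpk2, Rnf26 and Cirbp for Tapbp, and Irgm1, Ifi47 and Pygb for Tapbpl. For Erap1 they were Ppp2r2a, Api5 and Ddost, and for Nlrc5 Rab43, Zfp810 and Cdan1. Among the 9 genes themselves, Tap1 ranked 6th from Psmb9 and Psmb9 16th from Tap1, Tapbp ranked 8th from Tap1, and Psmb8 12th from Psmb10. Some other pairs lay much further apart, such as Psmb9 at 1086th from Psmb8. Irf1 ranked 4th from Psmb10, but 476th from Psmb9, 772nd from Tap1 and 5686th from Nlrc5. The class I chains H2-Q4, H2-Q7 and H2-K1 ranked 5th, 17th and 26th from Nlrc5. B2m, H2-M3 and H2-T24 ranked 528th, 950th and 7833rd from it. The ranks describe 8 libraries that share the difference between media. Erap1 was far from the rest, with the other 8 genes ranked no closer than 5851st. Nlrc5 was apart too, with Tapbp the closest of the other 8 genes at 1732nd.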

How the data were processed

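RNA-seq libraries of CD8 T cells (4 RPMI+pEtn, 4 RPMI) were analysed from the authors' table. Per the labels' protocols, sorted cells were lysed and their cDNA amplified for 15 cycles after SmartSeq synthesis. The submitters' processing notes name GRCm39 as the build. Which aligner, counting program, annotation and strand setting were used is not given in the sources read here. The deposited total counts, whole numbers per gene and library, entered every edgeR test. The deposited RPKM and TPM values served for ratios, levels per length and alternatives. A deposited column headed CPM was treated as a signal, since it is CPM times a constant per library, and was not used. No row lacked a gene name. Replicates 3 and 4 were kept as separate libraries.

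Counts were filtered with filterByExpr (11862 of 17625 genes with any count), scaled by TMM and tested by robust quasi-likelihood F tests in edgeR 4.0.16 (R 4.3.3), with Benjamini-Hochberg adjustment over all genes tested, and called at an adjusted p under 0.05. Levels are TMM-scaled CPM, and SE is that of the log2 fold change, derived from the F statistic. Scripts were tested on simulated data. Ratios were tested by exact permutation over libraries. Alternatives used other scalings, filters, DESeq2 1.42.0, limma 3.58.1 on log2(TPM + 1), log2(TPM + 0.1) and log2(RPKM + 1), the replicate block, left-out libraries, and replicates 3 and 4 summed. Over 11862 genes, the deviations of libraries 1 to 4 from their group means correlated with those of the same number in the other medium at 0.57, 0.55, 0.44 and 0.45. Each is above 0.1, so the fits with the replicate block treated the numbers as pairs, although no label explains them. The main fit, without the block, ignored them. Across numbers, RPMI+pEtn replicate 4 with RPMI replicate 3 gave 0.41 and RPMI+pEtn replicate 3 with RPMI replicate 4 gave 0.38, nearly as high. The pairing within numbers 3 and 4 is thus hardly set apart from the reverse. Nothing says that the libraries came from separate mice or cultures, so p-values measure the spread between these libraries, which may be technical, and reads without molecular identifiers are not independent molecules. The 9 genes and all lists were chosen with earlier results of these data known. Named were the 9 genes, fixed pathway genes, list genes called without or with the block, and the 3 most similar profiles of each, of which some are not reported here; genes named outside this (Canx, Pomp, H2-DMb1, H2-Ob, H2-T24 and the other markers) were chosen as neighbours, list members or after their values were seen. Promoter and transcript sequences and lengths came from RefSeq (GRCm38.p6) and GENCODE release M21, not the authors' build, and no promoter window of Tap2, Tapbpl or Nlrc5 was used here.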

Additional observations from a re-analysis of the deposited data

Results flagged for a closer look

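Values here are TMM-scaled CPM, each the highest or lowest of 4 libraries of a medium and set apart from the other 3 by a gap whose share of the range of those 4 libraries exceeds Dixon's critical value. In 124 groups of 4 libraries (59 genes and 3 subunit ratios, each in both media), 9 values stood apart in this way, and chance gives about 1 in 20 groups. Of these, 5 were replicate 2 as the lowest library. They were Psmb9 at 115.7 CPM in RPMI+pEtn, Tap1 at 284.6 CPM in RPMI+pEtn, Tap2 at 186.6 CPM in RPMI+pEtn, Irf1 at 154.2 CPM in RPMI+pEtn and Psmb8 at 376.3 CPM in RPMI. Replicate 1 gave the other 4. H2-DMb2, a chain of the class II peptide editor, was highest there in both media, at 4.537 CPM in RPMI+pEtn and 2.941 CPM in RPMI. Erap1 was lowest in RPMI replicate 1 at 246.6 CPM, and Ifngr1 highest in RPMI replicate 1 at 576.4 CPM. Without replicate 2 of either medium, Psmb9 and Tap1 kept their calls.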

How the results depend on the processing

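The 8 genes other than Erap1 kept a positive log2 fold change in every alternative run. Counts of calls moved more. With the replicate block, 3830 genes in all, 8 of the 9 genes and 30 of the genes of the other lists were called, against 1516, 5 and 13 without it. With replicates 3 and 4 summed the counts were 325, 0 and 4, and with the block added 2329, 8 and 21. Replicates 1 and 2 alone gave 32, 0 and 0, and replicates 3 and 4 alone 5675, 8 and 47. DESeq2 called 2253 genes, 7 of the 9 genes and 18 list genes. Leaving out each library gave 796 to 1638 genes, 2 to 6 of the 9 and 7 to 16 list genes without the block, and 2208 to 3596, 7 to 8 and 20 to 33 with it. In the last set, 3077 genes and 27 list genes were called without RPMI replicate 1, 3073 and 27 without RPMI+pEtn replicate 1, and 3582 without RPMI+pEtn replicate 2. The cause of these shifts was not tested. Another scaling left 5 of the 9 called. Without the low-count filter Nlrc5 replaced Psmb8 among the 5, and limma on log2(RPKM + 1) gave 4.

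The log2 differences of the Psmb8 to Psmb5 and Psmb9 to Psmb6 ratios were 0.74 and 0.70 and did not pass the exact sign-flip test by replicate number (p = 0.125), whose smallest possible p this is. They were 0.67 and 0.69 with replicates 3 and 4 averaged (adjusted exact permutation p = 0.15, where 3 against 3 values cannot go below 0.1 before adjustment, so a call could not be made). With a library left out they ran from 0.65 to 0.85 and from 0.59 to 0.77, and Psmb10 to Psmb7 from 0.53 to 0.72, passing without RPMI replicate 1. Signs changed for uncalled genes alone. Psmb6 was at -0.039 with replicates 3 and 4 only, from -0.12 to 0.089 in fits without the block that left out a library, and at -0.11 with the block and without replicate 2 of either medium. Psme1 was at -0.011 and Malat1 at -0.18 with replicates 1 and 2 only, Calr at -0.0353 and -0.0346 without replicate 2 of either medium in fits with the block, and Cd8a at -0.021 without RPMI+pEtn replicate 1 (0.21 without RPMI+pEtn replicate 4). Genes with means under 1 CPM (H2-DMb1, H2-Ob) are limited by depth.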
